A study of Mus musculus with 106 samples.

Results

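The 8 genes described here encode neuronal subunits of the nicotinic acetylcholine receptor: *Chrna3*, *Chrna4*, *Chrna5*, *Chrna6*, *Chrna7*, *Chrnb2*, *Chrnb3* and *Chrnb4*. They were taken by name as a gene family, and all 8 were found by Ensembl ID among the 55401 genes of the count table. Nicotinic receptors are cation channels that open when acetylcholine binds, and each neuronal one is a ring of α subunits alone or of α and β subunits. The subunits of *Chrna4* and *Chrnb2* form the most widespread high-affinity nicotinic receptor of the brain, and that of *Chrna7* forms channels of its own kind with high calcium permeability. Receptors built from *Chrna3* and *Chrnb4* are best known from autonomic ganglia and the medial habenula, often with the accessory subunit of *Chrna5*, whereas *Chrna6* and *Chrnb3* are typical of catecholaminergic and visual pathway neurons.

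RNA bound to tagged ribosomes was isolated from defined neurons of mice with a Huntington's disease (HD) mutation and of their littermates, to ask how each neuron type responds to the mutation before motor signs. HD mice were heterozygous knock-ins (Hdh Q7/Q200) and control mice were Hdh Q7/Q7, all on the 129S4 background and about 9 months of age. All mice carried a Cre driver and RiboTag, an allele that adds an HA tag to the ribosomal protein Rpl22 only in cells with Cre, so that an immunoprecipitation (IP) against HA recovers RNA on the ribosomes of those cells. The drivers were Gad2-IRES-Cre for GABAergic neurons, PV-IRES-Cre and an SST line for subsets of inhibitory neurons, and vGluT2-IRES-Cre for glutamatergic neurons, so each IP holds every cell in which its driver was active, now or earlier in development. The PV+ IPs were made in duplicate and pooled, and the SST line is known here from the sample labels alone. The study's account of littermate controls, background and age does not name the SST line. Mice of the SST line carry names of a BR and a Z series, and Z names occur among its control mice only.

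The 106 libraries came from 45 mice, 24 control and 21 HD, and replicates were separate mice. IPs of the cerebrum numbered 6 control and 6 HD for Gad2+, 6 and 5 for PV+, 5 and 4 for SST+, and 6 and 6 for vGluT2+ neurons. IPs of the cerebellum numbered 6 control and 6 HD for Gad2+ and 5 control and 6 HD for vGluT2+ neurons. Total RNA of the same tissues gave 13 control and 12 HD cerebral libraries and 7 control and 7 HD cerebellar libraries. Total counts per library ranged from 21905221 to 107753586, with a median of 35866726. Levels are given as CPM, counts scaled to the size of each library, on one scale for all libraries, and levels of different genes are compared only as CPM per kilobase of exon. A gene was called different where the adjusted p of edgeR's quasi-likelihood test was 0.05 or less after Benjamini-Hochberg adjustment over all protein-coding genes tested, those with a mean count over 10 in the comparison.

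The cerebral Gad2+, PV+ and SST+ IPs and the cerebellar IPs were rich in the marker genes of their label, beside markers of other cells. In control cerebral vGluT2+ IPs, subcortical glutamatergic markers had a median of 183 CPM, against 83.1 CPM in control cerebral total RNA. They were at 183 CPM in SST+ and 152 CPM in PV+ IPs, so they did not set the vGluT2+ IPs apart. Cortical glutamatergic markers had medians of 2248 CPM in control cerebral vGluT2+ IPs and 1769 CPM in total RNA. The 3 GABAergic markers *Gad1*, *Gad2* and *Slc32a1* summed to a median of 2700 CPM in control cerebral Gad2+ IPs, against 645 CPM in control cerebral total RNA and 76.6 CPM in control cerebral vGluT2+ IPs. The 3 PV markers summed to 1897 CPM in control PV+ IPs and 419 CPM in control cerebral total RNA, and the 3 SST markers to 1679 CPM in control SST+ IPs and 295 CPM in total RNA. Oligodendrocyte markers summed to 704, 1788 and 2872 CPM in control cerebral Gad2+, PV+ and SST+ IPs, cortical glutamatergic markers to 198, 856 and 897 CPM, and striatal projection neuron markers to 4948, 243 and 484 CPM. In the cerebellum, the 3 granule neuron markers summed to 7219 CPM in control vGluT2+ IPs and 616 CPM in control Gad2+ IPs, and the 3 Purkinje neuron markers to 298 and 8443 CPM. Cerebellar vGluT2+ IPs were thus led by granule neuron transcripts and cerebellar Gad2+ IPs by Purkinje neuron transcripts. Of the cerebellar libraries, 7 held over 3 times the median level of subcortical glutamatergic, noradrenergic or serotonergic markers of their line and preparation and over 2 CPM: vGluT2+ IPs control replicates 2 and 5 and HD replicates 3 and 5, Gad2+ IP HD replicate 2, and vGluT2-line total RNA control replicate 4 and HD replicate 2. The subcortical markers *Slc17a6* and *Tcf7l2* summed to 213 CPM in control replicate 5 and to 49.5 CPM in control replicate 2 of the vGluT2+ IPs, against 22.4 to 25.6 CPM in the other 3 control replicates. The results were also computed without these libraries, and values that moved with them are named below.

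In control cerebral IPs, *Chrna4* and *Chrnb2* stood far above the other members. Per kilobase, the median level of *Chrna4* was 10.9 CPM in Gad2+, 14 in PV+, 15.4 in SST+ and 14.4 in vGluT2+ IPs, and that of *Chrnb2* was 12.4, 14, 13 and 11 CPM. The ranges of these 2 genes overlapped in Gad2+, PV+ and SST+ IPs. With the longest transcript as gene length the medians of *Chrna4* were 12, 15.4, 16.9 and 15.9 CPM per kilobase, and those of *Chrnb2* 16.2, 18.3, 17 and 14.5. Which of them led thus depended on the gene length used in PV+ and SST+ IPs. *Chrnb2* led in Gad2+ IPs and *Chrna4* in vGluT2+ IPs with either length. *Chrna7* and *Chrna6* came next, *Chrna7* with medians of 1.85, 1.72, 1.17 and 1.37 CPM per kilobase in the same order of populations. The level of *Chrna6* overlapped that of *Chrna7* in Gad2+, SST+ and vGluT2+ IPs, at medians of 1.35, 1.13 and 1.39 CPM per kilobase, and lay below it in PV+ IPs at 0.63. With the longest transcript as gene length, the medians of *Chrna7* were 2.96, 2.75, 1.88 and 2.2 CPM per kilobase and those of *Chrna6* were unchanged, so the distance between these 2 genes depends on the length used. *Chrna3*, *Chrna5*, *Chrnb3* and *Chrnb4* closed the order in all 4 cerebral populations, with medians from 0.283 to 0.954 CPM per kilobase and ranges that overlapped between genes of neighbouring rank.

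The cerebellar order differed from the cerebral one in its upper and its lower ranks. *Chrnb2* led both populations, at a median of 22.9 CPM per kilobase in control Gad2+ IPs and 12.6 in control vGluT2+ IPs, with no overlap with the next gene. In Gad2+ IPs *Chrna4* followed at 2.32 and *Chrna7* at 0.578 CPM per kilobase, and *Chrnb4*, *Chrnb3*, *Chrna6* and *Chrna3* lay between 0.023 and 0.139. In vGluT2+ IPs *Chrnb4* at 1.76 CPM per kilobase stood beside *Chrna4* at 1.67, with a range from 1.27 to 2.02 that overlapped the 1.3 to 3.68 of *Chrna4*. The upper part of the *Chrna4* range came from control replicates 2 and 5, which held markers of other regions, at 17.3 and 18.5 CPM against 6.54 to 8.41 CPM in the other 3. The order of this pair depended on the gene length used, since with the longest transcript *Chrnb4* was at 1.76 and *Chrna4* at 1.84. *Chrna7* at 0.81, *Chrna6* at 0.434, *Chrna3* at 0.257 and *Chrnb3* at 0.0802 CPM per kilobase followed, the middle pair with overlapping ranges. *Chrna5* was barely counted in the cerebellum, with 1 count over the 6 control Gad2+ IPs and 5 counts over the 5 control vGluT2+ IPs, so no fold change is given for it there.

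**Figure D1:**
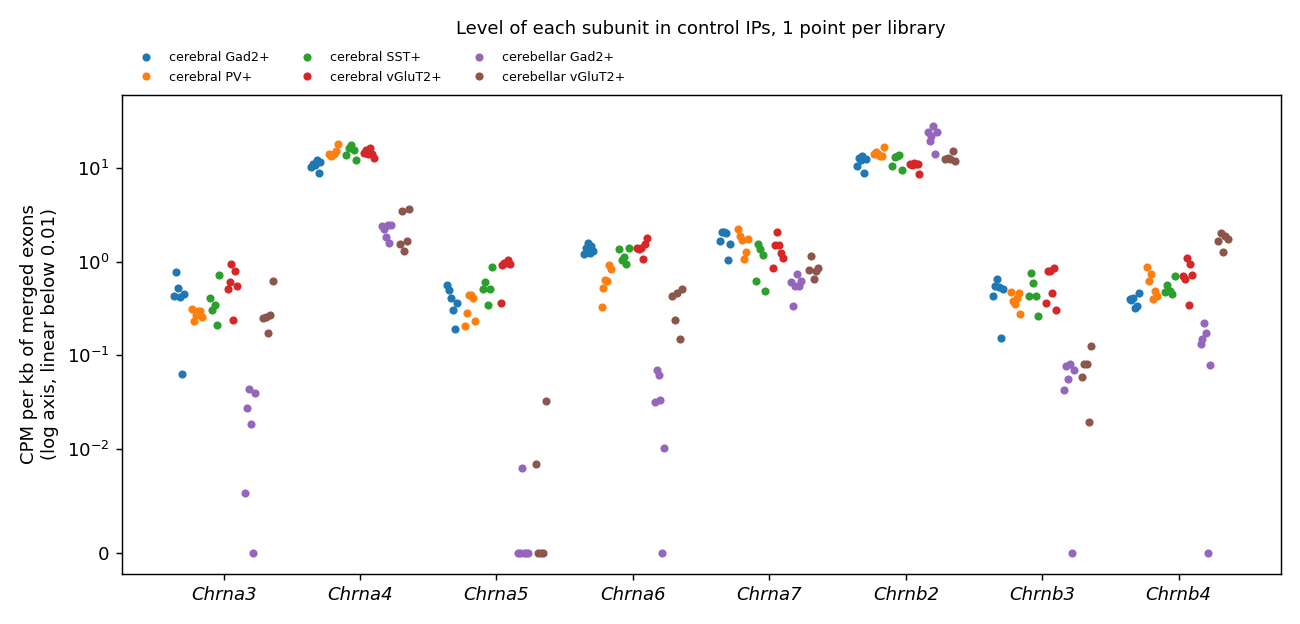
Level of each member in CPM per kilobase of exon (log axis, linear below 0.01) in every control IP library of the 6 populations. *Chrna4* and *Chrnb2* lead in the cerebrum, *Chrnb2* alone leads in the cerebellum, and *Chrnb4* stands beside *Chrna4* in cerebellar vGluT2+ IPs at a median of 1.76.

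Tests between control IPs showed which of these levels differed by population. PV+ against cerebral Gad2+ IPs gave 3 called members of 8 where 53.8% of all genes were called, SST+ against Gad2+ gave 2 where 54% were called, vGluT2+ against Gad2+ gave 3 where 30.5% were called, and PV+ against SST+ gave 1 where 15.1% were called. *Chrna4* was higher than in Gad2+ IPs by log2 0.44 (SE 0.16) in PV+, 0.49 (SE 0.17) in SST+ and 0.44 (SE 0.16) in vGluT2+ IPs, with no overlap between groups in any of these. Oligodendrocyte, cortical glutamatergic and striatal projection neuron markers also differed between these IPs, and their part in the result was not tested. *Chrna6* was lower in PV+ than in Gad2+ IPs by log2 -1.09 (SE 0.29, adjusted p = 0.00171 by edgeR's quasi-likelihood test), in 6 of 6 PV+ libraries, and lower than in SST+ IPs by log2 -0.89 (SE 0.30, adjusted p = 0.0377), again in 6 of 6. *Chrnb2* was higher in PV+ than in Gad2+ IPs (log2 0.30, SE 0.10), *Chrna7* lower in SST+ than in Gad2+ IPs (log2 -0.73, SE 0.26), and *Chrna5* and *Chrnb4* higher in vGluT2+ than in Gad2+ IPs (log2 1.17, SE 0.35, and log2 0.95, SE 0.32). With all 67 IPs in one fit, only *Chrna6* in PV+ (log2 -1.16) and *Chrna7* in SST+ IPs (log2 -0.80), both against Gad2+ IPs, were still called.

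Between regions more members were called, some of them at few counts. The cerebellar and cerebral IPs of a line came from the same mice, which the fit over 34 control IPs treats as independent; with mouse as a block the counts of called members were the same, 8 for Gad2+ and 7 for vGluT2+ IPs. Cerebellar against cerebral Gad2+ IPs gave 8 called members of 8, where 55.2% of all genes were called. This count includes *Chrna5*, *Chrna6* and *Chrna3*, which had few cerebellar counts. Of the 8 members, 7 were lower in the cerebellum. The exception was *Chrnb2*, higher in the cerebellum by log2 0.91 (SE 0.11, adjusted p = 4.42e-09 by edgeR's quasi-likelihood test) in 6 of 6 libraries. *Chrna5*, *Chrna6* and *Chrna3* had 1, 21 and 25 counts over the 6 control cerebellar libraries and passed the count filter through other groups. No fold change is given for these genes. The difference of the other lower members ran from log2 -1.59 (SE 0.25) for *Chrna7* and -1.62 (SE 0.34) for *Chrnb4* to -2.31 (SE 0.17) for *Chrna4* and -3.09 (SE 0.41) for *Chrnb3*. *Chrna7*, *Chrnb4*, *Chrna4* and *Chrnb3* did not overlap between the groups, and the share of all genes without overlap was not computed. Cerebellar against cerebral vGluT2+ IPs gave 7 called members of 8 where 63.2% of all genes were called. Here *Chrnb4* was the 1 member called higher in the cerebellum, by log2 1.14 (SE 0.32, adjusted p = 0.00252 by edgeR's quasi-likelihood test) in 5 of 5 libraries and without overlap. *Chrnb2* was also higher in 5 of 5 libraries without overlap (log2 0.21, SE 0.11, adjusted p = 0.0884 by the same test), but was not called. *Chrna3*, *Chrna4*, *Chrna5*, *Chrna6*, *Chrna7* and *Chrnb3* were called lower, *Chrna5* with 5 counts over the 5 control cerebellar libraries. The *Chrna3* difference was 2-fold and held in 4 of 5 libraries, the other being control replicate 5; its call was kept in 5 of 6 alternatives and without 26 of 34 libraries in turn, with log2 -1.45 without the libraries with markers of other regions. *Chrna4*, at log2 -2.72 (SE 0.19), was at -3.33 without them.

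Within the cerebellum, *Chrnb4*, *Chrna3*, *Chrna6* and *Chrnb2* differed between the populations of control mice. Cerebellar vGluT2+ against Gad2+ IPs gave 4 called members of 8, where 58% of all genes were called. *Chrnb4* was higher in vGluT2+ IPs by 13.1-fold (log2 3.71, SE 0.36, adjusted p = 8.45e-11 by edgeR's quasi-likelihood test), in 5 of 5 libraries with no overlap. *Chrna3* and *Chrna6* were also called higher, each in 5 of 5 libraries with no overlap. Their medians were 1.35 and 1.26 CPM in vGluT2+ IPs and 0.121 and 0.0938 CPM in Gad2+ IPs. With 25 and 21 counts over the 6 control Gad2+ IPs, they passed the count filter through other groups. No fold change is given for them here. *Chrnb2* was lower by log2 -0.82 (SE 0.11) in 5 of 5. *Chrna4* did not differ with all libraries (log2 0.03, SE 0.17), and without control replicates 2 and 5 it was lower in vGluT2+ IPs by log2 -0.58 (adjusted p = 0.000186; adjusted p from 0.000186 to 0.94 over 5 alternatives).

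Each IP was also compared with total RNA of its region, which came in part from the same mice. The comparison called 3 of 8 members in cerebral Gad2+ IPs (68.7% of all genes), 6 of 8 in PV+ (76.2%), 3 of 8 in SST+ (69.5%), 3 of 8 in vGluT2+ (68.1%), 3 of 6 tested in cerebellar Gad2+ (67.3%) and 2 of 7 tested in cerebellar vGluT2+ IPs (69.9%). With mouse as a block these counts were 1 in cerebral Gad2+, 5 in PV+, 0 in SST+, 0 in cerebral vGluT2+ IPs, and in the cerebellum 3 for Gad2+ and 2 for vGluT2+ IPs, so the SST+ and cerebral vGluT2+ calls were all lost. The blocked fits held only mice of the line with both an IP and total RNA, so they had fewer libraries. An effect of the pairing cannot be told apart from this loss of libraries. The shares of all genes given here belong to the fits without this block, so they are no measure for the blocked counts. *Chrnb2* was enriched in PV+ IPs by log2 0.49 (SE 0.06) in 11 of 11 libraries and in cerebellar Gad2+ IPs by log2 0.73 (SE 0.08) in 12 of 12. *Chrna6* was depleted from PV+ IPs by log2 -0.96 (SE 0.13) in 11 of 11 libraries and enriched in cerebellar vGluT2+ IPs by log2 1.55 (SE 0.29) in 11 of 11. *Chrnb4* was depleted from cerebellar Gad2+ IPs by log2 -2.16 (SE 0.37, adjusted p = 1.08e-05 by edgeR's quasi-likelihood test) in 12 of 12 libraries against the total RNA median. The ranges overlapped, at 0 to 0.817 CPM in these IPs and 0.197 to 4.16 CPM in total RNA of both genotypes. Over 6 alternatives the difference ran from log2 -2.84 to -2.09. In cerebellar vGluT2+ IPs *Chrna3* was enriched by log2 1.23 (SE 0.41), and the call was lost with control libraries only (log2 1.26) and with total RNA of the vGluT2 line only (log2 0.99). *Chrnb4* at log2 0.49 (SE 0.33) was not called over both genotypes, and was enriched by log2 0.91 (adjusted p = 0.000479 by edgeR's quasi-likelihood test) with control libraries only.

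The HD mutation was compared with control in each population, and members passed the test only in cerebellar vGluT2+ IPs and cerebellar total RNA among the 8 comparisons. In cerebellar vGluT2+ IPs 2 of 7 members tested were called, both lower in HD, where 2.09% of all genes were called. Cerebellar total RNA gave 2 of 6 members, the same *Chrnb4* and *Chrna3*, where 25.6% of all genes (3704) were called. *Chrna3* passed the count filter there through the control libraries, with 40 counts over the 7 HD libraries. In this comparison 52 genes were called without the libraries with markers of other regions and 9 with replicate number as a block. By edgeR's quasi-likelihood test 0 of 5 members tested were called in cerebellar Gad2+ IPs (0.0142% of all genes), with 0 at an unadjusted p under 0.05 and 0 by DESeq2. Of 8 members, 0 were called in cerebral Gad2+ IPs by edgeR (0.0279% of all genes), with 3 at an unadjusted p under 0.05 and 1 by DESeq2. PV+ IPs gave 0 of 8 by edgeR (0.0408% of all genes), with 1 at an unadjusted p under 0.05 and 0 by DESeq2. SST+ IPs gave 0 of 8 (0% of all genes by edgeR, 216 genes at an unadjusted p under 0.05 and 2 by DESeq2), with 1 member at an unadjusted p under 0.05 and 0 by DESeq2. Cerebral vGluT2+ IPs gave 0 of 8 (0% of all genes by edgeR, 1092 genes at an unadjusted p under 0.05 and 25 by DESeq2), with 0 members at an unadjusted p under 0.05 and 0 by DESeq2. Cerebral total RNA gave 0 of 8 by edgeR (0.652% of all genes), with 0 at an unadjusted p under 0.05 and 0 by DESeq2.

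**Figure D2:**
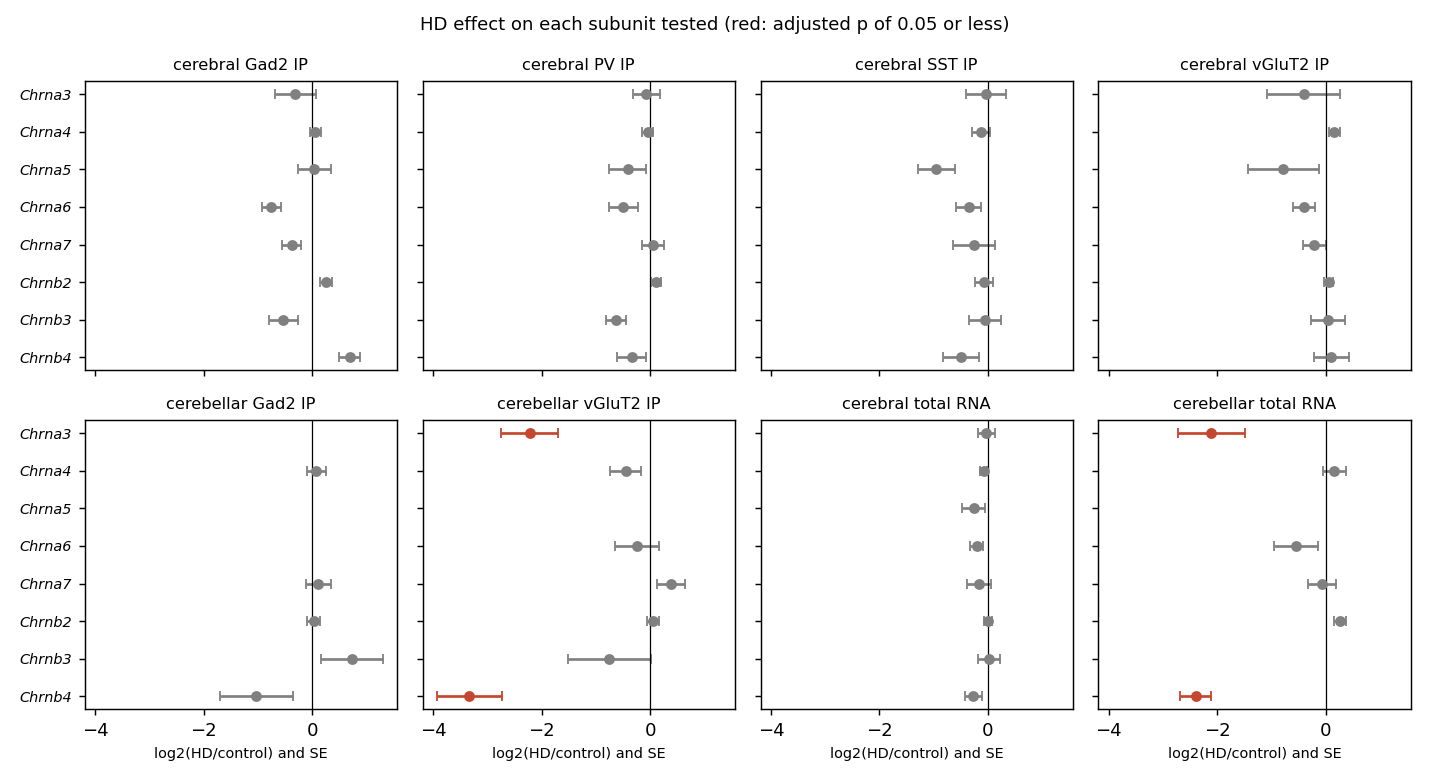
Log2 fold change of HD over control with its SE for each member in the 8 comparisons, red where the adjusted p of edgeR's quasi-likelihood test was 0.05 or less. The red points are *Chrnb4* and *Chrna3* in cerebellar vGluT2+ IPs (-3.33 and -2.22) and in cerebellar total RNA (-2.40 and -2.11). In total RNA *Chrna3* passed the count filter through the control libraries and had few HD counts.

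*Chrnb4*, whose subunit completes the ganglionic receptor with that of *Chrna3*, fell in cerebellar vGluT2+ neurons of HD mice. Its level was 6.15, 7.51, 4.73, 7.02 and 6.55 CPM in control replicates 1 to 5, and 0.391, 0.237, 0.802, 0.679, 1.7 and 0 CPM in HD replicates 1 to 6. Every control library was above every HD library, and HD replicate 6 had 0 counts, where 3 counts, the upper limit that counting error allows, would be 0.0853 CPM. The means were 6.39 ± 1.06 CPM (SD, n = 5) and 0.635 ± 0.598 CPM (SD, n = 6), and the fold change was 10.1-fold lower in HD (log2 -3.33, SE 0.60, adjusted p = 0.00926 by edgeR's quasi-likelihood test), in 6 of 6 HD libraries. Without the libraries with markers of other regions it was log2 -4.11 (adjusted p = 0.0137; from 7.05e-08 to 0.0141 over 10 alternatives), and the call held without each library in turn. In HD its median was 0.144 CPM per kilobase, below that of *Chrna6* at 0.318. Fewer cells of a type and less RNA per cell cannot be told apart in these bulk libraries.

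Cerebellar total RNA, from mice of the Gad2 line and of the vGluT2 line, most of which also gave an IP, showed the same direction for *Chrnb4*. The level was 3.13, 2.87 and 3.81 CPM in control and 0.447, 0.197 and 0.761 CPM in HD mice of the Gad2 line. In the vGluT2 line it was 3.06, 2.25, 3.26 and 4.16 CPM in control and 0.471, 0.872, 0.906 and 0.535 CPM in HD mice. The 7 control libraries were all above the 7 HD libraries, in both lines. *Chrnb4* was 5.28-fold lower in HD (log2 -2.40, SE 0.28, adjusted p = 0.000575 by edgeR's quasi-likelihood test) in 7 of 7 HD libraries, and was called without each of the 14 libraries in turn. Taken alone, the vGluT2 line gave log2 -2.16 (adjusted p = 0.000438) and the Gad2 line log2 -2.78 with an adjusted p of 0.81 in a comparison that called 0 genes (adjusted p from 1.1e-15 to 0.81 over 11 alternatives).

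**Figure D3:**
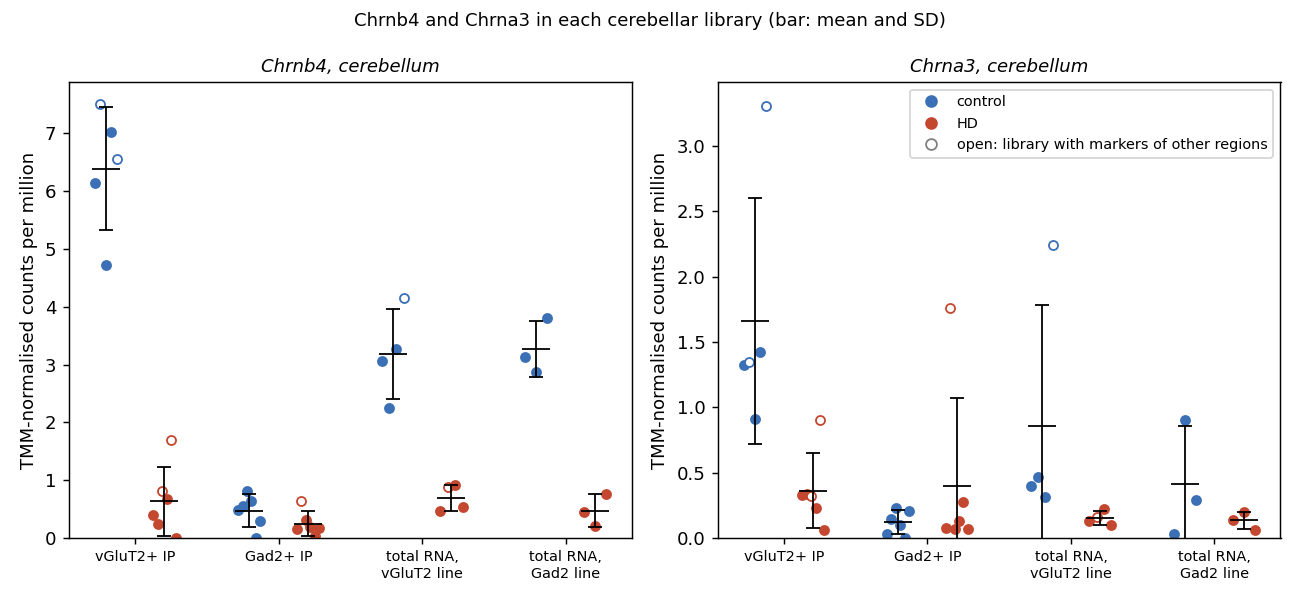
CPM of *Chrnb4* and *Chrna3* in each cerebellar library of vGluT2+ IPs, Gad2+ IPs and total RNA of both lines, with the mean and SD of each group; open points are libraries with markers of other regions. For *Chrnb4* the 5 control vGluT2+ IPs sit between 4.73 and 7.51, above the 6 HD IPs, of which 1.7 is the highest.

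*Chrna3*, the α subunit of the same receptor, was lower beside it, with less certainty. In cerebellar vGluT2+ IPs its level was 1.32, 1.35, 0.907, 1.42 and 3.31 CPM in control replicates 1 to 5 and 0.325, 0.332, 0.321, 0.226, 0.903 and 0.0568 CPM in HD replicates 1 to 6. The groups did not overlap but came within reach of each other, control replicate 3 at 0.907 and HD replicate 5 at 0.903. *Chrna3* fell by 2.22 on the log2 scale (SE 0.52, 4.64-fold, adjusted p = 0.0444 by edgeR's quasi-likelihood test) in 6 of 6 HD libraries. The call was kept without 2 of the 11 libraries, HD replicate 5 (log2 -2.71, adjusted p = 0.0167) and HD replicate 6 (log2 -2.01, adjusted p = 0.0494), and lost without each of the others, with an adjusted p of up to 0.11. It was also lost without the libraries with markers of other regions (log2 -2.31, adjusted p = 0.106; from 0.00222 to 0.106 over 10 alternatives), while the size of the difference was as large.

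In cerebellar total RNA, *Chrna3* ranged from 0.0307 to 2.24 CPM in control libraries, with a median of 0.393, and from 0.0634 to 0.222 CPM in HD libraries, with a median of 0.137. The groups overlapped through 1 control library of the Gad2 line at 0.0307 CPM, and the highest control value was vGluT2-line control replicate 4, which held markers of other regions. *Chrna3* fell by 2.11 on the log2 scale (SE 0.62, adjusted p = 0.0325 by edgeR's quasi-likelihood test), in 7 of 7 HD libraries against the control median. It had 175 counts over the 7 control libraries, 83 of them in control replicate 4 of the vGluT2 line, and 40 over the 7 HD libraries. It thus passed the count filter through the control libraries, and its fold change rests on few HD counts. The call was kept without 4 of the 14 libraries in turn, and the difference was log2 -1.42 (adjusted p = 0.08) without control replicate 4 of the vGluT2 line. Without the libraries with markers of other regions it was log2 -1.44 (adjusted p = 0.133; from 0.00654 to 0.133 over 10 alternatives). *Chrna5* had 5 counts over the control and 7 over the HD cerebellar vGluT2+ IPs and was not tested there.

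Marker levels of the same libraries moved as follows. In cerebellar vGluT2+ IPs the 3 granule neuron markers summed to between 5344 and 7966 CPM in control and between 3260 and 5080 CPM in HD libraries, without overlap. The most abundant, *Cbln3*, was lower in HD by log2 -0.80 (SE 0.09) and *Neurod1* by log2 -0.86 (SE 0.16), both called, and *Gabra6* was not called (log2 -0.37, SE 0.16). The part of these granule neuron markers in the *Chrnb4* result was not tested. Medial habenula markers, from a structure known for *Chrna3* and *Chrnb4*, were near 0 in both groups, at medians of 0.751 and 0.686 CPM. Subcortical glutamatergic markers had medians of 25.6 and 19.6 CPM and noradrenergic markers medians of 1.62 and 0.0726 CPM, with overlapping ranges. Each list held 2 genes, with 0 called by edgeR, 0 at an unadjusted p under 0.05 and 0 by DESeq2. Dopaminergic markers had medians of 3.14 CPM in control and 1.23 CPM in HD libraries, and cholinergic markers 0.356 and 0.127 CPM. Serotonergic markers went the other way, at 1.17 and 1.31 CPM, and the ranges of all these lists overlapped. The part of all these markers in the *Chrna3* result was not tested. In cerebellar total RNA oligodendrocyte markers had medians of 4096 CPM in control and 2654 CPM in HD libraries, Purkinje neuron markers 2369 and 1795 CPM, and granule neuron markers 2799 and 2018 CPM. Microglia markers were at 57.5 and 81.6 CPM and cortical glutamatergic markers at 765 and 1145 CPM, and the part of all these in the total RNA results was not tested.

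In cerebellar Gad2+ IPs the same genes were low in both genotypes. *Chrnb4* ranged from 0 to 0.817 CPM in control (median 0.519) and from 0.0276 to 0.638 CPM in HD libraries (median 0.176), and the groups overlapped. Its difference, log2 -1.03 (SE 0.67), was not called. *Chrna3* had too few counts to be tested, with 5 of 6 HD libraries at or below 0.276 CPM and replicate 2, which held subcortical glutamatergic markers, at 1.76 CPM.

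Whether the HD effect differed between populations was tested directly over all 67 IPs, a fit that treats cerebral and cerebellar IPs of the same mice as independent. Cerebellar vGluT2+ minus cerebral vGluT2+, a contrast added after the values were seen, called 1 of 8 members where 0.594% of all genes were called. This member was *Chrnb4*, with a difference of log2 -3.44 (SE 0.62, adjusted p = 0.000585 by edgeR's quasi-likelihood test), called without each of 47 libraries in turn and without those with markers of other regions (log2 -4.24). With mouse as a block within the vGluT2 line the *Chrnb4* difference was log2 -3.92 and not called (adjusted p = 0.14; from 1.09e-07 to 0.14 over 5 alternatives). Cerebellar vGluT2+ minus cerebellar Gad2+ also called 1 of 8, *Chrna3* at log2 -3.77 (SE 0.95, adjusted p = 0.0473), where 0.457% of all genes were called. *Chrna3* entered this fit through other populations and had too few counts to be tested in cerebellar Gad2+ IPs, with 25 counts over the 6 control and 74 over the 6 HD libraries, 47 of them in HD replicate 2, so this call is not taken as a difference between the populations. The call was kept without 18 of 47 libraries in turn and lost without each of the others: without HD replicate 2 of the cerebellar Gad2+ IPs it was log2 -2.17 (adjusted p = 0.482), and without all libraries with markers of other regions log2 -2.27 (adjusted p = 0.677; from 0.00322 to 0.677 over 4 alternatives). For *Chrnb4* the same contrast was log2 -2.34 (SE 0.67, adjusted p = 0.113) by edgeR, not called, and log2 -2.33 (adjusted p = 0.0103) by DESeq2, called (adjusted p from 0.0103 to 0.127 over 4 alternatives). Cerebral Gad2+ minus cerebellar Gad2+ called 0 of 8 by edgeR (0.0614% of all genes), with 3 members at an unadjusted p under 0.05 and 0 by DESeq2. Cerebral Gad2+ minus cerebral vGluT2+ called 0 of 8 (0% of all genes by edgeR, 308 genes at an unadjusted p under 0.05 and 3 by DESeq2), with 0 members at an unadjusted p under 0.05 and 0 by DESeq2.

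In cerebral Gad2+ neurons the member with the smallest unadjusted p was *Chrna6*, a subunit of receptors on catecholaminergic neurons. The study itself named this gene from these samples, so its direction here is not independent evidence. Its level ran from 3.49 to 4.58 CPM in control (median 3.93) and from 1.93 to 3.18 CPM in HD libraries (median 2.38). The groups did not overlap, and 6 of 6 HD libraries were below the control median. The difference of log2 -0.75 (SE 0.18) had an adjusted p of 0.275 by edgeR's quasi-likelihood test and was not called, whereas DESeq2 called it (log2 -0.74, adjusted p = 0.0226; from 0.0226 to 0.443 over 9 alternatives). Markers of striatal projection neurons in these libraries summed to between 4326 and 5836 CPM in control and between 2527 and 4257 CPM in HD libraries, without overlap. Of these 6 genes edgeR called 0, with 5 at an unadjusted p under 0.05 and 3 by DESeq2, and their part in the *Chrna6* values was not tested. In the other cerebral populations *Chrna6* was at log2 -0.49 (PV+, SE 0.27), -0.35 (SST+, SE 0.23) and -0.40 (vGluT2+, SE 0.21), and none of these was called.

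*Chrnb4* in cerebral Gad2+ IPs had the opposite sign to the cerebellum. It ran from 1.18 to 1.71 CPM in control (median 1.48) and from 1.57 to 3.27 CPM in HD libraries (median 2.44). All 6 HD libraries were above the control median, though the ranges overlapped. The difference was log2 0.69 (SE 0.20, adjusted p = 0.427 by edgeR's quasi-likelihood test) and did not pass. The sign was not shared by all cerebral comparisons. *Chrnb4* was at log2 -0.34 (SE 0.26) in PV+, -0.49 (SE 0.33) in SST+ and 0.10 (SE 0.32) in vGluT2+ IPs. In cerebral total RNA it was at log2 -0.27 (SE 0.16), and none of these was called. *Chrnb3*, which often accompanies *Chrna6*, ran from 1.77 to 2.99 CPM in control and from 1.26 to 1.96 CPM in HD PV+ IPs (log2 -0.63, SE 0.18, adjusted p = 0.691, lower in 5 of 5 HD libraries). *Chrna5* in SST+ IPs ran from 1.07 to 2.75 CPM in control and from 0.719 to 1.14 CPM in HD libraries (log2 -0.95, SE 0.34, adjusted p = 1, lower in 4 of 4). Both ranges overlapped and neither was called. In the same PV+ libraries oligodendrocyte markers summed to between 1402 and 2297 CPM in control and between 951 and 1363 CPM in HD, without overlap, and their part in the *Chrnb3* values was not tested.

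The widespread subunits showed little difference at this depth. *Chrna4* was between log2 -0.45 (SE 0.29, cerebellar vGluT2+) and 0.16 (SE 0.11, cerebral vGluT2+) over the 8 comparisons. *Chrnb2* was between log2 -0.07 (SE 0.16, SST+) and 0.26, a value it had in both cerebral Gad2+ IPs (SE 0.11) and cerebellar total RNA (SE 0.11). In the latter it ran from 90.9 to 117 CPM in control and from 99 to 164 CPM in HD libraries, higher than the control median in 6 of 7 HD libraries (adjusted p = 0.0907 by edgeR's quasi-likelihood test). *Chrna7* was between log2 -0.38 (SE 0.18, cerebral Gad2+) and 0.38 (SE 0.26, cerebellar vGluT2+). These 3 genes were not called in any of the 8 comparisons. *Chrnb2* in cerebellar total RNA was called in 1 of 11 alternatives, the vGluT2 line alone (log2 0.41, adjusted p = 0.0392; from 0.0392 to 1 over the alternatives), and without 1 of 14 libraries. *Chrna4* in cerebellar vGluT2+ IPs was at log2 -0.04 without the libraries with markers of other regions. In cerebellar total RNA the sign of 2 of these genes depended on the alternative. Over 11 alternatives *Chrna4* ran from log2 -0.32 to 0.50 and *Chrna7* from log2 -0.43 to 0.40, and neither was called.

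The pair called lower in HD lies in one gene cluster. In the GRCm38.p6 build *Chrna5* (ENSMUSG00000035594.10, 9:54980880-55007779, plus strand), *Chrna3* (ENSMUSG00000032303.8, 9:55010111-55026562, minus strand) and *Chrnb4* (ENSMUSG00000035200.7, 9:55028154-55048779, minus strand) follow each other with gaps of 2331 and 1591 bases. *Chrnb3* (ENSMUSG00000031492.13, 8:27368711-27399730, plus strand) and *Chrna6* (ENSMUSG00000031491.10, 8:27403212-27413944, minus strand) are also neighbours, 3481 bases apart. *Chrna4* (ENSMUSG00000027577.14, 2:181018380-181043546), *Chrna7* (ENSMUSG00000030525.8, 7:63098692-63212569) and *Chrnb2* (ENSMUSG00000027950.7, 3:89746195-89764632), all on the minus strand, stand alone. *Chrnb4* overlaps the antisense gene *Gm47877*, which had 5 counts over all libraries against 8495 for *Chrnb4*. *Chrnb2* overlaps *Adar* by 7252 bases on the other strand, which stranded reads tell apart. *Chrna7* overlaps *Gm44741* by 2127 bases on its own strand, so reads could be shared between these 2 genes.

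The promoters of the called pair are shown since both genes were called in the same IPs. RefSeq promoters (GRCm38.p6) were matched for 6 of the 8 members, all but *Chrna6* and *Chrnb3*. Each window is 300 bases on the minus strand, 9:55026513-55026812 for *Chrna3* and 9:55048495-55048794 for *Chrnb4*, written 5′ to 3′. Capitals mark matches to a GC box (GGGCGG) or an E box (CANNTG) on either strand.
*Chrna3*: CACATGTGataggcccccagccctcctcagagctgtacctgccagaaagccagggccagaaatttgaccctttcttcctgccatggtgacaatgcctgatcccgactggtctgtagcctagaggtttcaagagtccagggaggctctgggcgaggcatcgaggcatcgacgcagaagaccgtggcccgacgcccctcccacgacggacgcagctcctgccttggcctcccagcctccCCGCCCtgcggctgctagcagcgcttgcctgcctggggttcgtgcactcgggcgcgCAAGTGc
*Chrnb4*: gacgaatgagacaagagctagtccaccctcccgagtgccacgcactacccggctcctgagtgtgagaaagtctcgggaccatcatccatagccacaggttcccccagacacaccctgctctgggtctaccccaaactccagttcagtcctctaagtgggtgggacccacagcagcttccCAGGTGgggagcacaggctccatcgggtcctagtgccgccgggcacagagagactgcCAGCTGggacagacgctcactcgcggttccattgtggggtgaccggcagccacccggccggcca
The *Chrna3* window held 1 GC box and 3 E boxes, of which the first pair overlap, and the *Chrnb4* window held 0 GC boxes and 2 E boxes. Of 32851 promoters of this length 35.7% held the GC box and 72.3% the E box. A match describes the letters only, and binding was not measured.

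The genes most like each member were found by Pearson correlation of log2(CPM + 1) over the 34 control IPs among 14571 genes. *Chrnb4* was closest to *Rims1* (r = 0.912), *Ntrk3* (0.900) and *Fam131b* (0.895), and *Chrna3* to *Dusp7* (0.856), *Pcsk2* (0.843) and *Fam13c* (0.842). *Chrna4* was closest to *Mpped1* (0.985), *Chrna5* to *Bmp3* (0.959), *Chrna6* to *Slc35f4* (0.961) and *Chrnb3* to *Cmpk2* (0.931). *Chrnb2* was closest to *Lman2* (0.932) and *Chrna7* to *Stk24* (0.812). With Spearman correlation the closest gene was another for each of the 8 members, such as *Sept8* for *Chrnb4* (0.888) and *Slc35f4* for *Chrna3* (0.810), so the nearest genes depend on the measure. Libraries of one population share their tissue and IP, so these values describe the order of populations.

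Other genes of cholinergic signalling were followed through 4 lists of 26 genes: other nicotinic subunits, assembly factors and Ly6 modulators, acetylcholine synthesis, release and breakdown, and muscarinic receptors. In cerebellar vGluT2+ IPs 0 of 15 tested were called by edgeR, with 2 at an unadjusted p under 0.05 and 0 by DESeq2, and the median log2 fold change was -0.15 against -0.01 for all genes. In the cerebral vGluT2+ IPs edgeR called 0 of 19 (2 at an unadjusted p under 0.05, 1 by DESeq2), and in PV+ IPs 0 of 21 (2 and 0). Cerebral Gad2+ IPs gave 0 of 20, SST+ IPs 0 of 21 and cerebellar Gad2+ IPs 0 of 15 by edgeR, each with 0 at an unadjusted p under 0.05 and 0 by DESeq2. Cerebral total RNA gave 0 of 22 by edgeR, with 3 at an unadjusted p under 0.05 and 0 by DESeq2. In cerebellar total RNA, where 25.6% of all genes were called, 3 of 17 were higher and 3 lower: the nicotinic chaperone *Tmem35a* (log2 0.44, SE 0.11), *Ly6e* (0.51, SE 0.13) and acetylcholinesterase *Ache* (0.53, SE 0.17) were higher, and the chaperone *Ric3* (-0.69, SE 0.19), *Lypd6* (-0.49, SE 0.14) and the muscarinic receptor *Chrm2* (-1.31, SE 0.42) were lower. The number of genes called in cerebellar total RNA fell strongly without the libraries with markers of other regions and with replicate number as a block, as given above. These calls are limited in the same way. *Ric3* was present in cerebellar vGluT2+ IPs at a median of 171 CPM in control and 147 CPM in HD libraries. The cholinergic marker *Chat* had a median of 0.03 CPM in control vGluT2+ IPs of the cerebellum, with a highest value of 0.918 CPM.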

How the data were processed

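The deposited values were expected counts for 55401 genes in 106 libraries, which the authors made from stranded paired-end RNA-seq reads with nf-core/rnaseq (STAR and Salmon) on the GRCm38.p6 genome with spike-ins and the HA tag added. Counts were rounded for the tests, and Ensembl IDs were matched to a mouse annotation for names, gene types and exon lengths. Library sizes excluded spike-ins, which made up at most 4.45% of a library. Counts were normalised by TMM and tested with edgeR 4.0.16 (quasi-likelihood F test, default options) in R 4.3.3, with DESeq2 1.42.0 as an alternative, and tables were made with Python 3.11.15. Tests covered protein-coding genes whose counts averaged over 10, and p was adjusted by Benjamini-Hochberg over all of them. The SE of a log2 fold change was taken as its size over √F. The code was tested on simulated counts with 200 changed genes: for cerebellar vGluT2+ IPs (13395 genes) it recovered 59 of 66 genes changed 4-fold 42 of 65 changed 2-fold and 19 of 67 changed 1.5-fold, with 10 unchanged genes called. Intervals and floors cover counting error only.

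The members and lists were chosen with earlier results of these data known. The dispersion options of edgeR were also chosen with earlier counts of called genes known; they are those of the first run, and other options were added as alternatives. The rule for libraries with markers of other regions, the contrast of the HD effect in cerebellar with cerebral vGluT2+ IPs, and mouse as a block in the differences of the HD effect between regions, were chosen after seeing the data. Other alternatives changed the normalisation, the filter, the gene types, the samples in the fit, blocks, lines and gene length, and left out each library in turn.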

Additional observations from a re-analysis of the deposited data

Results flagged for a closer look

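In 18 of 120 sets of a member in a group, 1 library lay far from the others. Chance gives about 1 in 20 for independent, normally distributed values. Some sets here hold few counts and members share libraries, so that rate need not hold for them. *Chrna3* was highest at 3.31 CPM in cerebellar vGluT2+ IP control replicate 5 (nearest 1.42), 2.24 CPM in vGluT2-line cerebellar total RNA control replicate 4 (0.467), 1.76 CPM in cerebellar Gad2+ IP HD replicate 2 (0.276) and 0.903 CPM in cerebellar vGluT2+ IP HD replicate 5 (0.332). These 4 libraries all held markers of other regions. *Chrna4* was highest at 14.2 CPM in cerebellar vGluT2+ IP HD replicate 5 (8.92), and *Chrnb3* at 0.962 CPM in HD replicate 3 (0.347), both with such markers. *Chrna6* was highest at 0.938 CPM in cerebellar Gad2+ IP HD replicate 2 (0.11), and lowest at 0.356 CPM in cerebellar vGluT2+ IP HD replicate 2 (0.868) and 0.236 CPM in vGluT2-line cerebellar total RNA HD replicate 1 (0.291). *Chrna5*, at few counts, was highest at 0.102 CPM in cerebellar vGluT2+ IP control replicate 5 (0.0268), 0.108 CPM in vGluT2-line cerebellar total RNA control replicate 4 (0) and 0.0255 CPM in cerebellar Gad2+ IP control replicate 3 (0).

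In the cerebrum *Chrna5* was lowest at 1.13 CPM in vGluT2+ IP control replicate 1 (nearest 2.89) and at 0 CPM in the re-sequenced HD library of that population (1.42). This library also had 0 counts of *Chrna3*, against 1.5 to 4.46 CPM in the other HD libraries. All 3 re-sequenced libraries are HD, which confounds their sequencing run with genotype; without them the number of members called stayed at 0 in each of their comparisons by edgeR. PV+ IP control replicate 6 was highest for *Chrna4* at 90.6 CPM (76) and for *Chrnb2* at 142 CPM (123). *Chrnb2* was also highest at 126 CPM in cerebellar vGluT2+ IP control replicate 4 (106) and lowest at 72.6 CPM in cerebral vGluT2+ IP control replicate 6 (90).

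Tests of the difference of the HD effect between populations called *Chrna3* (cerebellar vGluT2+ minus cerebellar Gad2+, log2 -3.77) and *Chrnb4* (cerebellar vGluT2+ minus cerebral vGluT2+, log2 -3.44). *Chrna3* had too few counts to be tested in cerebellar Gad2+ IPs alone, its call was kept without 18 of 47 libraries in turn, and it was at log2 -2.17 (adjusted p = 0.482 by edgeR) without cerebellar Gad2+ IP HD replicate 2, so it is not taken as a difference. The *Chrnb4* difference was not called with mouse as a block.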

How the results depend on the processing

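Of 191 tested member values 54 were called. Over 1412 alternatives of these, 1286 kept direction and call, 126 kept direction only and 0 reversed. Of 137 values not called, 43 changed sign under some alternative. Where a count below moved, the cause was not tested unless fewer libraries were used.

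For HD against control, members called became 1 in cerebral Gad2+ IPs by DESeq2 and 1 in cerebellar vGluT2+ IPs without libraries with markers of other regions. In cerebellar total RNA they became 1 without those libraries and 0 in the Gad2 line alone. Leaving out each library gave 1 to 2 in cerebellar vGluT2+ IPs and 1 to 3 in cerebellar total RNA. With replicate number as a block, cerebellar total RNA gave 1 (*Chrnb4* log2 -2.46; *Chrna3* log2 -1.67, not called) with 9 genes called in all, and the block changed no other count of members called for HD against control. In no comparison did every pair of libraries with the same number correlate over 0.1 (2 of 7 pairs in cerebellar total RNA), so the numbers were not treated as pairs.

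For IP against total RNA, members called became 1 in cerebral Gad2+ IPs with mouse as a block, and 3 in PV+ IPs with control libraries only. SST+ IPs gave 1 with control libraries only, 1 with the same line and 0 with mouse as a block. Cerebral vGluT2+ IPs gave 1 with DESeq2 size factors, 1 with control libraries only, 0 with the same line and 0 with mouse as a block. With the same line, cerebellar Gad2+ IPs gave 5 and cerebellar vGluT2+ IPs 1. Fits with control libraries only, the same line or mouse as a block held fewer libraries.

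Between control IPs, all 67 IPs in one fit gave 1 for PV+ and 1 for SST+ against Gad2+, 0 for vGluT2+ against Gad2+ and 0 for PV+ against SST+. Leaving out each library gave 1 to 2 for SST+ against Gad2+ and 0 to 2 for PV+ against SST+. *Chrna4* in cerebral vGluT2+ against Gad2+ IPs was called without 27 of 34 libraries in turn, and *Chrnb4* there without 33. In PV+ against Gad2+ IPs, *Chrna4* and *Chrnb2* were each called without 33 of 34. *Chrna4* in cerebellar vGluT2+ against Gad2+ IPs turned from log2 0.03 to -0.58 without libraries with markers of other regions. For the difference of the HD effect, cerebellar vGluT2+ minus cerebellar Gad2+, members called became 2 by DESeq2, 0 without the filter and 0 without libraries with markers of other regions, and 0 to 2 leaving out each library. For cerebellar vGluT2+ minus cerebral vGluT2+ they became 0 with mouse as a block, in a fit with fewer libraries (*Chrnb4* log2 -3.92).

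Cerebellar total RNA gave 3704 called genes in the chosen fit and 52 without libraries with markers of other regions, so the number of genes called there depends strongly on the libraries. Members with few counts, chiefly *Chrna5*, *Chrna3* and *Chrnb3* in the cerebellum, are limited by depth.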
